A study of Mus musculus with 18 samples.

Results

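The genes of the collagen chains, 42 in all among 18193 genes with a probe set of their own, were followed in mouse embryoid bodies in which the transcription factor Msgn1 was switched on. A gene was included if the array annotation gave it a probe set of its own and its symbol reads Col, a number, a and a number. These 42 genes hold 82 probe sets and cover 26 collagen types. Where a gene had several, the probe set with the highest mean over the 18 arrays stood for it.

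A collagen molecule is a triple helix of chains wound in the endoplasmic reticulum, where prolyl and lysyl hydroxylases modify the chains and the chaperone HSP47, encoded by Serpinh1, holds the helix. Fibrillar collagens are trimmed outside the cell and crosslinked into fibrils, while collagen IV forms the sheet-like network of basement membranes, which is laid down early in the mouse embryo and underlies the epithelia of embryoid bodies. Fibril-associated collagens sit on the surface of fibrils, beaded collagen VI forms microfilaments, transmembrane collagens stay anchored in the cell membrane, and the multiplexins carry side chains of proteoglycans.

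The cells were the embryonic stem cell line A2loxFMsgn1 of strain 129P2 (formerly called 129/Ola), in which doxycycline turns on a FLAG-tagged Msgn1, a basic helix-loop-helix factor of the presomitic mesoderm. They were kept with LIF on mouse embryonic fibroblasts that mitomycin had stopped from dividing, and then formed embryoid bodies in a medium that held 50 µg/ml ascorbic acid, a cofactor of the collagen hydroxylases. After 2 days doxycycline at 1 µg/ml was added (induced) or left out (uninduced), and the embryoid bodies were collected 12, 24 and 48 h later, 3 arrays for each of the 6 groups. All groups carry the inducible cassette and had the same feeder cells and medium. No group received doxycycline without the cassette, so the drug and the factor cannot be told apart, and the line may be a single clone, which the labels leave unsaid. The titles call the arrays of a group biological replicates; whether they came from separate cultures is not stated, and p-values measure the spread between these arrays only.

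The arrays gave 1 signal per probe set on a linear scale, scaled by the authors to the same trimmed mean on every array, and the median signal of an array was 18.7 to 22.1. Replicate arrays correlated at 0.990 to 0.994 over all 45101 probe sets. The probe set of Msgn1 read 44.5 to 76.8 on the 9 induced arrays and 4.69 to 25.2 on the 9 uninduced arrays, with no overlap. Changes are differences of log2(signal + 32), an offset that understates the change of dim probe sets. A gene was tested if it reached a mean signal of 13.3 in at least 1 group. Of the 42 collagen genes 32 were tested, and Col10a1, Col15a1, Col17a1, Col24a1, Col25a1, Col4a3, Col4a4, Col6a4, Col6a5 and Col8a1 stayed below that level in every group. A test passed at an adjusted p under 0.05 (limma, Benjamini-Hochberg over the 14273 genes tested).

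The sequences before the start of transcription are shown for 4 chains whose signals were higher in induced embryoid bodies, since Msgn1 belongs to a family of factors that bind the letters CANNTG. These 4 are a choice from the 11 chains called higher at 48 h, and the windows of the other ones are not shown. They do not stand for their collagen classes. RefSeq promoters of GRCm38.p6 were at hand for 33 of the 42 genes, and each line below gives the 250 bases before the start, 5′ to 3′ on the strand of the gene. Capitals mark each CANNTG, and the search of both strands finds the same places because the motif is its own reverse complement. The windows are chr11:51289670-51289919 on the plus strand for Col23a1, chr10:61979109-61979358 on the minus strand for Col13a1, chr6:4505368-4505617 on the plus strand for Col1a2 and chr2:27886175-27886424 on the plus strand for Col5a1.
Col23a1: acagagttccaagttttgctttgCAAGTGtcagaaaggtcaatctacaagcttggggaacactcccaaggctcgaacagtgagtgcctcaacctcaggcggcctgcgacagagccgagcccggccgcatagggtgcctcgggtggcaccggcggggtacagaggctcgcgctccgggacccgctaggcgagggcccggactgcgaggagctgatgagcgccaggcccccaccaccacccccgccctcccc
Col13a1: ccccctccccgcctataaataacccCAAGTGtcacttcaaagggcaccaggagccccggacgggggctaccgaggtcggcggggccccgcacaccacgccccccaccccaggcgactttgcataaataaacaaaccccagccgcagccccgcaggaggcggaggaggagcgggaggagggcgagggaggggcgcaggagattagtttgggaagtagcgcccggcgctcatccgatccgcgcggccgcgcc
Col1a2: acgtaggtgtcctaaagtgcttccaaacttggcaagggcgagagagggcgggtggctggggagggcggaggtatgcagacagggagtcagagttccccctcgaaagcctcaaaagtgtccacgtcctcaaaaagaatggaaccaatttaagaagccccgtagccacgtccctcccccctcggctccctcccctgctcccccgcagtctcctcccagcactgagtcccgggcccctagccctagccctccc
Col5a1: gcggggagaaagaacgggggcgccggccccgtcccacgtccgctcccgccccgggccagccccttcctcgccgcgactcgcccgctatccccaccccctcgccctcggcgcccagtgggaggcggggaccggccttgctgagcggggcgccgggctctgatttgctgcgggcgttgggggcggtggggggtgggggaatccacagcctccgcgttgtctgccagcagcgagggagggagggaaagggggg
Col23a1 and Col13a1, the transmembrane chains, each held 1 CANNTG, and the fibrillar chains Col1a2 and Col5a1 held 0. Of the 32851 RefSeq promoters of this length 66.2% held at least 1. The letters GGGCGG, read on both strands, occurred 2 times in Col1a2, 2 times in Col5a1, 1 time in Col23a1 and 0 times in Col13a1, against 32.7% of all promoters with at least 1. Guanine and cytosine made up 62% of the Col1a2 window, 66% of the Col23a1 window, 68.8% of the Col13a1 window and 76.4% of the Col5a1 window. A match of letters is a description of the window and not a bound site.

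The paired arrangement of the collagen IV genes is the other feature of position. In GRCm38.p6 the RefSeq start of Col4a1 lies at chr8:11312826 on the minus strand and that of Col4a2 at chr8:11312805 on the plus strand, 21 bases apart on opposite strands. The 22 bases from one start to the other lie within the first bases of both transcripts. Their promoter windows in the RefSeq table overlap by 78 bases. The starts of Col4a6 and Col4a5 lie on chromosome X at 141474076 and 141475419, 1343 bases apart.

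Collagen IV chains form the networks of basement membranes. Among the classes with more than 2 tested genes they had the highest share of calls on induction at 24 h and 48 h. This share was 50% at both times, 2 of 4 genes, beside 3.91% and 12.4% of all genes. Of the 2 tested transmembrane genes, 1 passed at 24 h and 2 passed at 48 h. Col4a1 and Col4a2, the chains of the most widespread form of collagen IV, were higher in induced than in uninduced embryoid bodies at 24 h and 48 h. Both also rose over time without induction. Col4a5, which joins the networks of kidney and other specialised basement membranes, rose over time in both courses, and its induced change did not pass the test at any time, narrowly so at 48 h. Col4a6 passed in no comparison through its brightest probe set, and Col4a3 and Col4a4 were not tested. In these bulk samples fewer cells of a type and less RNA per cell cannot be told apart.

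**Figure D1:**
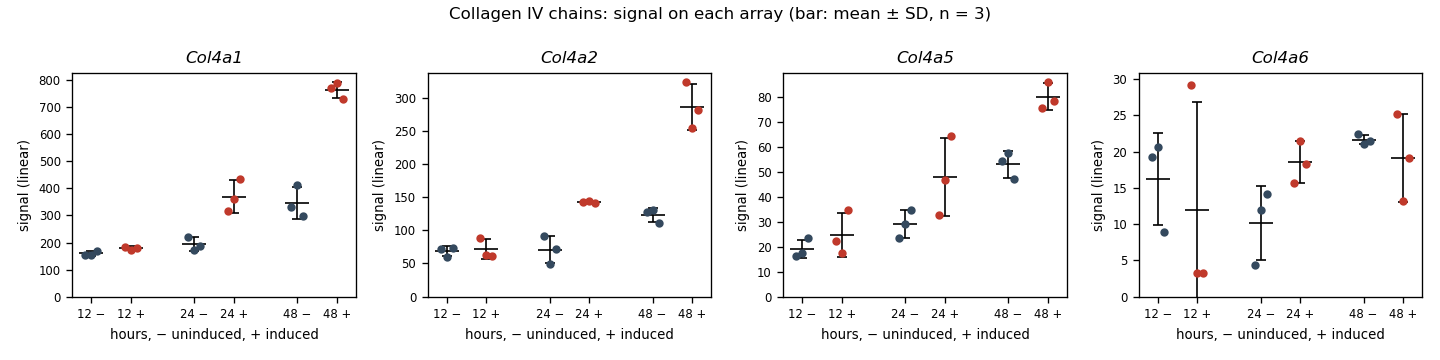
Signal (linear scale) of the collagen IV chains on each array against hours after doxycycline, blue points for uninduced (−) and red points for induced (+) embryoid bodies, with bars for the mean ± SD of 3 arrays; the bar of Col4a6 at 12 h induced ends at 0 on the axis although the SD of 15.0 exceeds the mean of 11.9. At 48 h the induced arrays of Col4a1 read 731 to 790.2 and the uninduced arrays 298 to 411.

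At 12 h Col4a1 read 155, 155 and 169 on the uninduced arrays and 185, 171 and 179.6 on the induced arrays. At 24 h the readings were 222, 172 and 188 without and 315, 361 and 434 with induction. At 48 h they were 331, 411 and 298 without and 771, 790.2 and 731 with induction. The induced arrays lay above the uninduced ones at every time, by little at 12 h and by a wide margin later, and the group means at 48 h were 347 ± 58.3 and 764 ± 30.3 (SD, n = 3). The change was 0.14 at 12 h, 0.83 ± 0.110 (SE) at 24 h (adjusted p = 5.75e-05) and 1.08 ± 0.110 at 48 h (adjusted p = 3.21e-07). The second kept probe set of Col4a1 also passed at 24 h and 48 h, with changes of 0.57 and 0.53.

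Col4a2 read 72.2, 59.5 and 73.5 on the uninduced arrays at 12 h and 88.4, 63.4 and 61.8 on the induced arrays, and the groups overlapped. At the next time it read 91.3, 49.5 and 72.0 without induction and 143, 145 and 141 with it. At 48 h it read 127, 131 and 111 without and 323, 254 and 281 with induction. The groups were apart at both later times, and the 48 h means were 123 ± 10.6 and 286 ± 34.7 (SD, n = 3). Its change was 0.03 at 12 h, 0.78 ± 0.130 at 24 h (adjusted p = 7.01e-04) and 1.04 ± 0.130 at 48 h (adjusted p = 5.34e-06). At each time the changes of Col4a1 and Col4a2 differed by less than the SE of either.

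Without induction Col4a1 rose by 0.97 ± 0.110 from 12 h to 48 h (adjusted p = 4.53e-07) and Col4a2 by 0.62 ± 0.130 (adjusted p = 6.85e-04). The second kept probe set of Col4a1 did not pass there, with a change of 0.28 and a p of 0.0700 adjusted over probe sets by limma. In the induced course the rises were 1.92 ± 0.110 and 1.63 ± 0.130 (adjusted p = 6.05e-12 and 1.24e-09). The uninduced level of Col4a1 at 48 h, 347, was near the induced level at 24 h, 369.8 ± 60.04.

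Col4a5 read 16.4, 17.6 and 23.3 on the uninduced arrays at 12 h, 23.6, 29.0 and 34.6 at 24 h, and 54.3, 57.6 and 47.0 at 48 h. On the induced arrays it read 22.2, 17.6 and 34.7 at 12 h, 32.8, 46.7 and 64.2 at 24 h, and 75.6, 86.0 and 78.3 at 48 h. It climbed in both courses, and only at 48 h did the induced and uninduced arrays not overlap. The rise was 0.73 ± 0.133 without induction (adjusted p = 1.69e-04) and 0.99 ± 0.133 with it (adjusted p = 2.97e-06). Induced minus uninduced, the change was 0.40 ± 0.133 at 48 h with an adjusted p of 0.0530, and it passed with only the 48 h arrays in the fit (adjusted p = 0.0262). At 24 h it passed only without the induced array numbered 1 (0.52, adjusted p = 0.0377). Of its kept probe sets 1 of 2 passed in the uninduced course.

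Col4a6, the partner of Col4a5 in a basement membrane network, read 3.22 to 29.2 over the 12 h arrays and 13.1 to 25.2 over the 48 h arrays, and its changes on induction lay between −0.18 and 0.27. Its dimmer kept probe set was called over the uninduced course (0.39, with a p of 0.0428 adjusted over probe sets by limma), and without the induced 12 h array numbered 1 the brighter one rose over the induced course (0.53, adjusted p = 0.00429). The brightest probe sets of Col4a3 and Col4a4, chains of the kidney filtration membrane, had group means of 3.82 to 11.2 and 4.39 to 9.94.

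The fibrillar chains moved in part. Of 11 fibrillar genes 10 were tested, and Col1a2, Col5a1 and Col5a2 passed on induction at 48 h, all of them higher, while Col1a1, Col3a1, Col2a1, Col5a3, Col11a1, Col11a2 and Col27a1 did not. Col1a2 encodes the second chain of collagen I, the main fibril former of connective tissue, and Col5a1 and Col5a2 encode the chains of collagen V, which starts fibrils and sets their width. The share of 30% at 48 h stands beside 12.4% of all genes. At 24 h Col1a2 alone passed (10% beside 3.91%), and at 12 h 0 of 10 did by limma (1.08% of all genes). An unadjusted p under 0.05 was found at 12 h for 3 of the 10, beside 11.3% of all genes. Over the uninduced course 0 of 10 passed by limma beside 33.6% of all genes. The share of all genes with an unadjusted p under 0.05 was not counted there, and 2 of the 10 had one. Those were Col1a2 and Col3a1, which fell past the test in single settings such as quantile normalization (-0.37 and -0.34, adjusted p = 0.0290 and 0.0133) and without 1 array, the uninduced 48 h array numbered 2 for Col1a2 (-0.45, adjusted p = 0.0113) and the uninduced 12 h array numbered 2 for Col3a1 (-0.36, adjusted p = 0.0145). Feeder fibroblasts make these chains too. Of 23 tested fibroblast markers 9 were higher and 0 lower on induction at 48 h (39.1% beside 12.4% of all genes). Among them were Fbln2 (1.23) and Fstl1 (0.95). The median of the 23 markers was 0.09, and Dcn, Lum, Postn and Thy1 had changes of -0.40, -0.17, 0.01 and 0.09, none past the test.

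**Figure D2:**
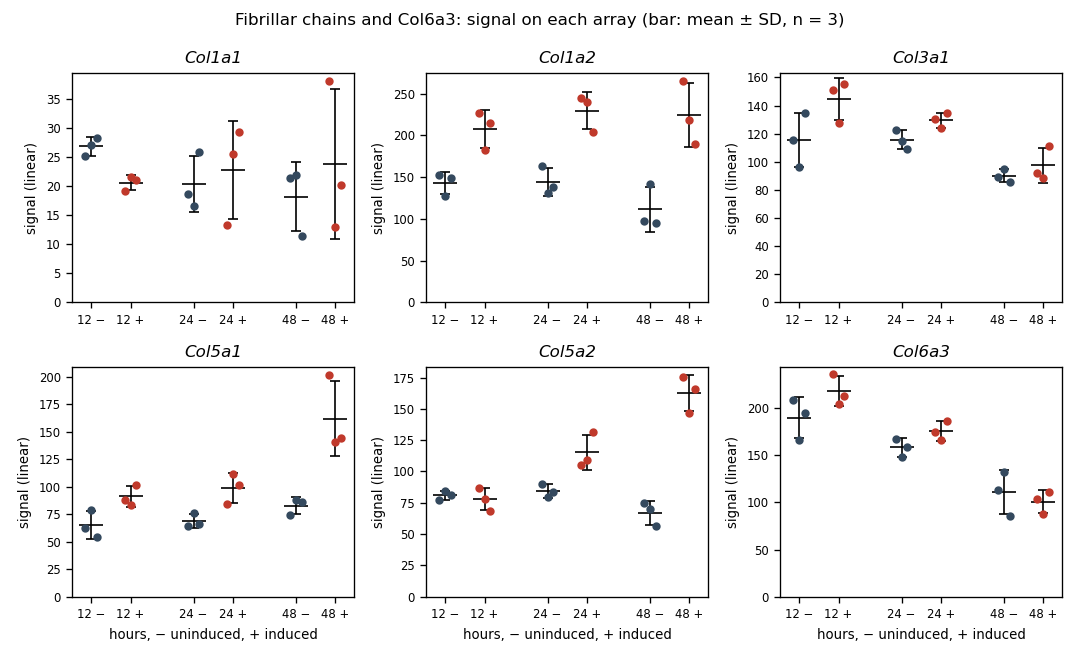
Signal (linear scale) of 5 fibrillar chains and of Col6a3 on each array against hours after doxycycline, blue points for uninduced (−) and red points for induced (+) embryoid bodies, with bars for the mean ± SD of 3 arrays. Col5a2 reads 147 to 175 on the induced arrays at 48 h and 56.2 to 74.6 on the uninduced arrays, whereas the points of Col1a1 overlap at 24 h and 48 h.

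Col1a2 read 153, 128 and 149 on the uninduced arrays at 12 h and 227, 182 and 215 on the induced ones. The 24 h arrays read 164, 131 and 138 without and 245, 239.9 and 204 with induction. At 48 h it read 97.1, 142 and 95.4 without and 266, 218 and 189.6 with induction. The groups did not overlap at any time, and the induced means stayed between 208 and 229.7 while the uninduced mean was 143 at 12 h and 112 at 48 h. The change was 0.45 ± 0.127 at 12 h (adjusted p = 0.103), 0.57 ± 0.127 at 24 h (adjusted p = 0.0107) and 0.84 ± 0.127 at 48 h (adjusted p = 5.93e-05). Both kept probe sets of Col1a2 passed at 24 h and at 48 h. The call at 24 h was lost without the uninduced array numbered 2 (0.52, adjusted p = 0.0544) and without the induced array numbered 2 (0.54, adjusted p = 0.0585).

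Col1a1, the other chain of collagen I, was dim. It read 25.2, 27.2 and 28.4 on the uninduced arrays at 12 h, 18.6, 16.7 and 25.9 at 24 h, and 21.4, 21.97 and 11.4 at 48 h. On the induced arrays it read 19.3, 21.7 and 21.1 at 12 h, 13.3, 25.6 and 29.5 at 24 h, and 38.2, 13.05 and 20.3 at 48 h. The induced arrays were lower at 12 h and overlapped the uninduced ones later, with changes of −0.16, 0.06 and 0.13, each with an SE of 0.144 and none past the test. Its signals were near the array median, where the offset compresses differences. Its second kept probe set was called in no comparison, and at 12 h it went the other way, with a change of 0.32.

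Col3a1, which forms fibrils with collagen I in stretchable tissues, read 115, 96.2 and 135 on the uninduced arrays at 12 h, 123, 115 and 109 at 24 h, and 89.1, 95.0 and 86.0 at 48 h. With induction it read 151, 128 and 155 at 12 h, 130.1, 124 and 134 at 24 h, and 92.2, 88.5 and 111 at 48 h. Both courses ended lower than they began. The changes on induction were 0.26 ± 0.103 at 12 h, 0.13 at 24 h and 0.08 at 48 h, with adjusted p-values of 0.310, 0.618 and 0.707. From 12 h to 48 h Col3a1 fell by 0.45 ± 0.103 in the induced course (adjusted p = 0.00122), and in the uninduced course the change was −0.27 ± 0.103 (adjusted p = 0.0513).

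Col5a2 read 77.1, 84.3 and 81.2 on the uninduced arrays at 12 h and 86.9, 78.2 and 68.8 on the induced ones. The readings at 24 h were 90.0, 79.3 and 83.6 without and 106, 109 and 131 with induction. At 48 h it read 74.6, 69.9 and 56.2 without and 175, 147 and 166 with induction. The groups overlapped at 12 h and stood apart afterwards, and the means at 48 h were 66.9 ± 9.56 and 163 ± 14.6 (SD, n = 3). The change was −0.04 at 12 h, 0.34 ± 0.102 at 24 h (adjusted p = 0.0712) and 0.98 ± 0.102 at 48 h (adjusted p = 4.40e-07), and both kept probe sets passed at 48 h.

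Col5a1 read 62.4, 79.3 and 54.3 on the uninduced arrays at 12 h and 88.3, 83.4 and 102 on the induced ones. Its 24 h arrays read 64.4, 76.3 and 66.1 without and 84.1, 112 and 101 with induction. Its 48 h arrays read 74.4, 87.9 and 86.3 without and 201, 141 and 144 with induction. The induced arrays were higher at each time with no overlap, and the change passed only at 48 h, where it was 0.74 ± 0.123 (adjusted p = 1.81e-04) after 0.34 at 12 h and 0.37 at 24 h (adjusted p = 0.246 and 0.107). The second kept probe set of Col5a1 went the same way with a different course, 0.64 at 24 h (called) and 0.39 at 48 h with a p of 0.0708 adjusted over probe sets by limma.

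Among the remaining fibrillar genes, Col27a1, which is found in cartilage, read 34.7, 38.7 and 38.4 without and 50.5, 49.3 and 57.7 with induction at 48 h. The groups did not overlap and the change of 0.29 ± 0.116 did not pass (adjusted p = 0.123). Col2a1, Col5a3, Col11a1 and Col11a2 had changes between −0.13 and 0.19 on induction at all 3 times, and Col11a2 reached the level for testing in 1 group only.

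Outside these families the widest differences at 48 h belonged to a fibril-associated chain and the membrane-anchored chains. Col14a1, a chain that coats fibrils and binds decorin, and Col23a1, a transmembrane chain, were dim until 24 h, and their induced arrays at 48 h lay above all the others. Col13a1, the transmembrane chain of cell adhesions and of the neuromuscular junction, was higher on induction from 12 h on. Col26a1, a short chain first described in testis and ovary, was higher at 48 h.

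**Figure D3:**
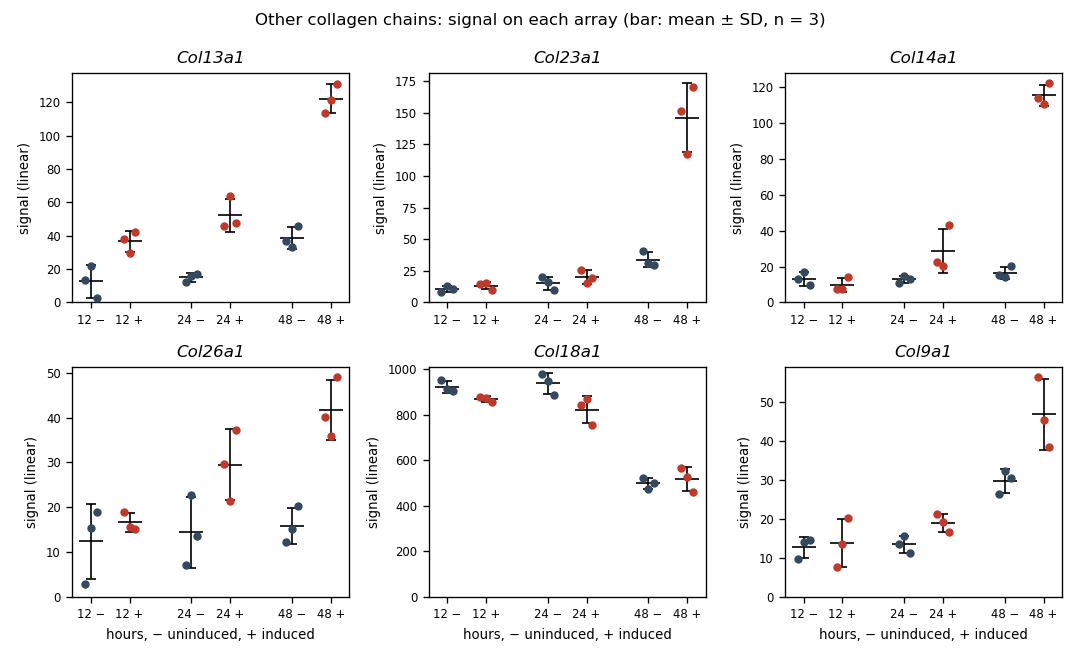
Signal (linear scale) of 6 chains outside collagen IV and the fibrillar class on each array against hours after doxycycline, blue points for uninduced (−) and red points for induced (+) embryoid bodies, with bars for the mean ± SD of 3 arrays. Col14a1 reads 111 to 122 and Col23a1 117 to 170.2 on the induced arrays at 48 h, above all other arrays, Col13a1 is higher on induced arrays at every time, and Col18a1 drops to between 461 and 566 in both groups at 48 h.

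Col14a1 read 13.2, 17.2 and 9.49 on the uninduced arrays at 12 h, 11.05, 14.6 and 13.1 at 24 h, and 15.3, 14.3 and 20.5 at 48 h. With induction it read 7.40, 7.58 and 14.2 at 12 h, 22.8, 20.6 and 43.1 at 24 h, and 114, 111 and 122 at 48 h. The uninduced course stayed flat, the 24 h induced arrays were higher without overlap, and the 48 h induced arrays exceeded every other array. The change was −0.12 at 12 h, 0.42 ± 0.124 at 24 h (adjusted p = 0.0615, and 0.0474 without the induced array numbered 2) and 1.60 ± 0.124 at 48 h (adjusted p = 5.87e-09). Both kept probe sets passed at 48 h, the second with 0.93.

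Col23a1 read 8.41, 12.9 and 10.8 on the uninduced arrays at 12 h, 19.9, 15.8 and 9.57 at 24 h, and 40.8, 31.3 and 29.3 at 48 h. With induction it read 14.8, 15.2 and 9.97 at 12 h, 25.7, 15.1 and 19.1 at 24 h, and 151, 117 and 170.2 at 48 h. The groups overlapped at 12 h and 24 h and were wide apart at 48 h. The change was 0.08, 0.14 and 1.43 ± 0.124 at the 3 times (adjusted p = 3.06e-08 at 48 h), and all 3 kept probe sets passed at 48 h, the other ones with 1.21 and 0.92. Without induction Col23a1 rose by 0.62 ± 0.124 from 12 h to 48 h (adjusted p = 4.62e-04).

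Col13a1 read 13.3, 21.99 and 2.59 on the uninduced arrays at 12 h and 38.1, 29.5 and 42.1 on the induced ones. At 24 h it read 12.1, 15.9 and 17.1 without and 45.5, 63.7 and 47.7 with induction. At 48 h it read 36.6, 33.5 and 46.0 without and 114, 121 and 131 with induction. No group overlapped its partner at any time. The change was 0.64 ± 0.136 at 12 h (adjusted p = 0.0176), 0.84 ± 0.136 at 24 h (adjusted p = 5.66e-04) and 1.13 ± 0.136 at 48 h (adjusted p = 3.23e-06), and the uninduced course rose by 0.68 ± 0.136 (adjusted p = 4.27e-04). The 12 h call depended on single arrays: without the uninduced arrays numbered 1 and 3 in turn the change was 0.66 and 0.47 (adjusted p = 0.0524 and 0.106), and without the induced arrays numbered 1 and 3 it was 0.62 and 0.58 (adjusted p = 0.0801 and 0.0958). With only the 12 h arrays in the fit, the adjusted p of Col13a1 was 0.0742.

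Col26a1 read 2.87, 15.3 and 18.96 on the uninduced arrays at 12 h, 6.99, 22.8 and 13.5 at 24 h, and 12.2, 15.2 and 20.2 at 48 h. With induction it read 19.01, 15.6 and 15.1 at 12 h, 29.7, 21.4 and 37.3 at 24 h, and 40.2, 36.0 and 49.0 at 48 h. The groups overlapped until 24 h and were apart at 48 h, where the change was 0.62 ± 0.145 (adjusted p = 0.00492). At 24 h it was 0.41 ± 0.145 (adjusted p = 0.135).

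Of the 9 fibril-associated genes, all tested, 3 passed on induction at 48 h, Col14a1, Col19a1 and Col9a1 (33.3% beside 12.4% of all genes), and the median change of the 9 was 0.00. Col19a1, a minor chain of basement membrane zones, read 13.1, 17.1 and 8.04 on the uninduced arrays at 48 h and 22.4, 36.6 and 24.8 on the induced arrays. Col19a1 reached the level for testing only in the induced 48 h group, so its call there rests on the group that admitted it. Its change of 0.42 ± 0.109 (adjusted p = 0.0117) was carried by 1 of 3 probe sets, and it was 0.34 without the uninduced array numbered 3 and 0.32 without the induced array numbered 2 (adjusted p = 0.0810 and 0.0791). Col9a1, a chain of cartilage fibrils, read 26.4, 32.4 and 30.5 without and 56.5, 45.5 and 38.5 with induction at 48 h.

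The change of Col9a1, 0.35 ± 0.114, passed narrowly (adjusted p = 0.0493). It was lost in 11 of 16 other settings, among them without the uninduced array numbered 1, 2 or 3 (adjusted p = 0.162, 0.0723 and 0.102) and without the induced array numbered 1 or 2 (adjusted p = 0.234 and 0.0866). Over the uninduced course Col9a1 rose by 0.47 ± 0.114 (adjusted p = 0.00278), a call that the mean of its probe sets did not keep (0.25, adjusted p = 0.104).

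Chains of 3 further classes were lower at 48 h than at 12 h. Col18a1, a multiplexin of basement membranes whose end piece is endostatin, fell in both courses. Col6a3, the large chain of the beaded filaments of collagen VI, also fell in both, and Col8a2, a short chain of endothelial and corneal membranes, fell in the uninduced course. None of these 3 passed on induction at any time.

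Col18a1 read 951, 912 and 905 on the uninduced arrays at 12 h, 978, 948 and 888 at 24 h, and 521, 474 and 499.9 at 48 h. With induction it read 879.6, 874 and 856 at 12 h, 845, 868 and 756 at 24 h, and 566, 525 and 461 at 48 h. The induced arrays were slightly lower without overlap at 12 h and 24 h and overlapped at 48 h, while all 48 h arrays lay far below all earlier ones. It fell by 0.85 ± 0.0751 without induction (adjusted p = 1.12e-08) and by 0.72 ± 0.0751 with it (adjusted p = 7.96e-08), and both kept probe sets passed in the uninduced course. The second of them carries an identifier that marks possible matches to other transcripts. On induction the changes of Col18a1 were −0.08, −0.18 and 0.05 (adjusted p = 0.767, 0.221 and 0.777).

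Col6a3 read 209, 166 and 195 on the uninduced arrays at 12 h, 168, 148 and 159 at 24 h, and 114, 132 and 85.9 at 48 h. With induction it read 236, 205 and 213 at 12 h, 175, 166 and 187 at 24 h, and 104, 87.3 and 111 at 48 h. Induced and uninduced arrays overlapped at each time, and both courses went down. It fell by 0.65 ± 0.112 without induction (adjusted p = 1.04e-04) and by 0.91 ± 0.112 with it (adjusted p = 8.40e-07). Col6a1 and Col6a2, the short chains of the same molecule, had changes of −0.18 and −0.20 over the uninduced course and −0.27 and −0.25 over the induced course, and neither passed.

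Col8a2 read 31.1, 28.6 and 27.5 without induction at 12 h and 15.5, 14.7 and 11.8 at 48 h, a fall by 0.41 ± 0.102 (adjusted p = 0.00345) with no overlap. In the induced course its change was 0.05. Col16a1, a fibril-associated chain, was 0.35 lower at 48 h than at 12 h in the induced course (adjusted p = 0.0484) with overlapping arrays, and this call was lost without the induced 12 h arrays numbered 1 and 2 (adjusted p = 0.209 and 0.127) and the induced 48 h arrays numbered 2 and 3 (adjusted p = 0.129 and 0.216). The single anchoring fibril gene, Col7a1, had changes of 0.00 to 0.10 on induction and passed in no comparison, though without the induced 48 h array numbered 1 it rose over the induced course (0.37, adjusted p = 0.0211).

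Counted over the 32 tested genes, 1 was higher and 0 lower on induction at 12 h, where 1.08% of all genes were called (0.897% higher and 0.182% lower). At 24 h 4 were higher and 0 lower, a share of 12.5% beside 3.91% of all genes (2.91% higher and 0.995% lower). By 48 h 11 were higher and 0 lower, 34.4% beside 12.4% (6.86% higher and 5.56% lower). The 11 include Col19a1, which reached the level for testing only in the induced 48 h group. They also include Col9a1, whose call was lost in 11 of 16 other settings. The median change of the 32 genes was 0.07, 0.11 and 0.12 at the 3 times, and that of all genes 0.0026, 0.0054 and 0.0077. Without an adjustment 5, 10 and 16 of the 32 genes had a p under 0.05, where 11.3%, 15.2% and 24% of all genes did. Without the induced 48 h array numbered 2 Col9a2 was called lower at 48 h (-0.47, adjusted p = 0.0411).

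**Figure D4:**
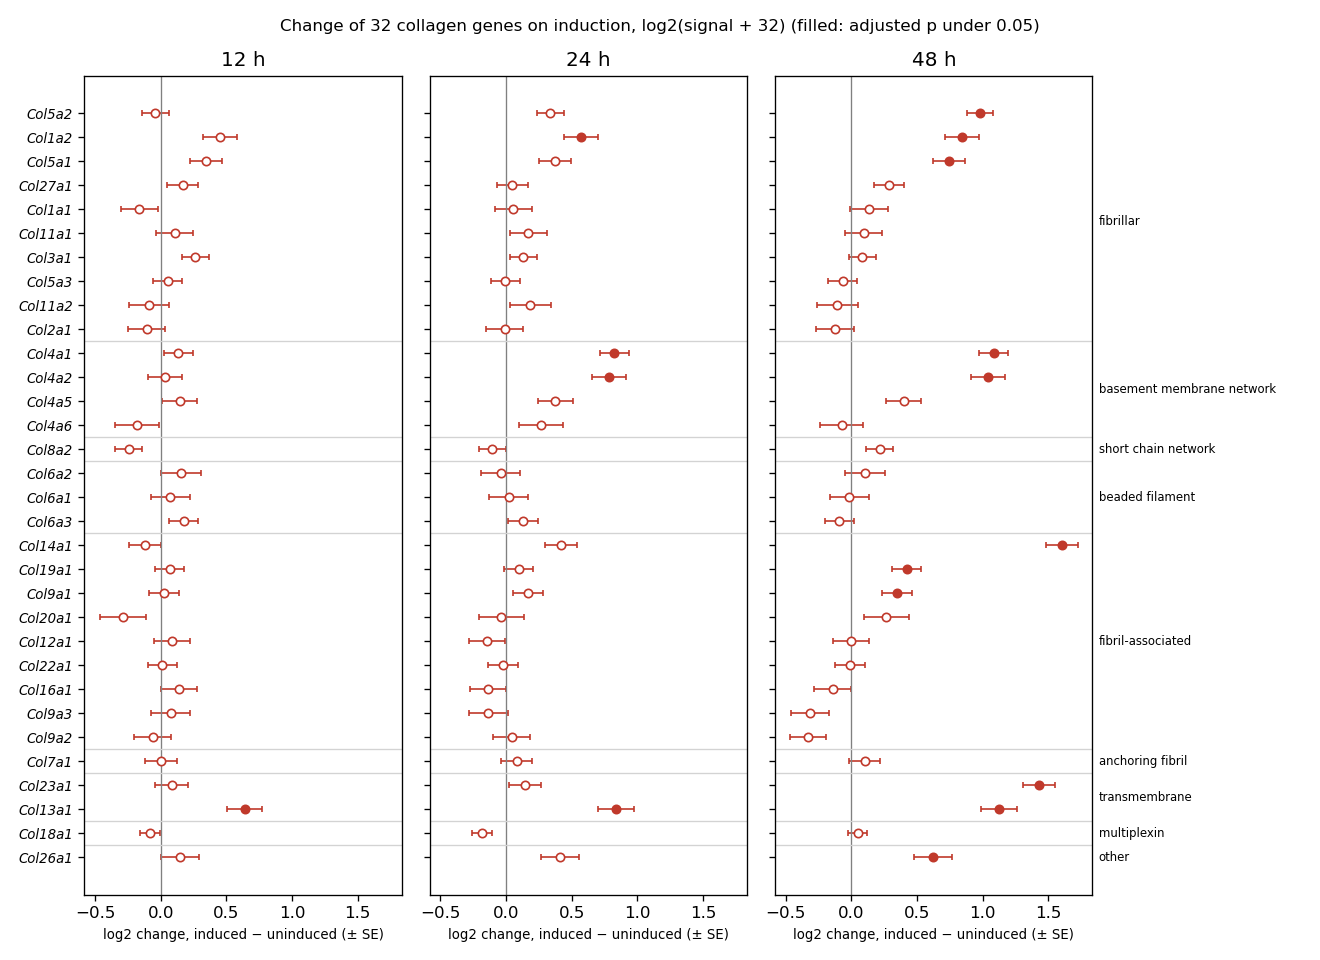
Change of each of the 32 tested collagen genes as induced minus uninduced log2(signal + 32), with 1 panel for each of 12, 24 and 48 h, bars for the SE and filled points for genes past the test. The filled points number 1, 4 and 11 from the first panel to the last, and all of them lie above 0. Those at 48 h include Col19a1, which only the induced 48 h group brought into the test.

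Read by arrays alone, the 3 induced arrays lay above all 3 uninduced arrays for 14 of the 32 genes at 48 h and below them for 0, where the shares among all genes were 15.9% and 13.3%. At 24 h the counts were 11 above and 2 below (10.4% and 7.79% of all genes), and at 12 h 4 and 4 (9.53% and 9.13%). Over the uninduced course 6 collagen genes rose and 3 fell, 28.1% beside 33.6% of all genes (18.6% higher and 15% lower), so the share was near that of all genes. The 48 h arrays lay above all 12 h arrays for 9 of the 32 and below them for 6 (24.9% and 21.5% of all genes). In the induced course 11 rose and 4 fell, 46.9% beside 41.7% (22.8% higher and 18.9% lower), and the arrays stood apart upward for 12 and downward for 4 (28% and 23.9% of all genes). Col19a1, which only the induced 48 h group brought into the test, is among these 11 and 12 and among the 14 above. The 6 that rose without induction were Col4a1, Col4a2, Col4a5, Col9a1, Col13a1 and Col23a1.

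The difference between times of the induction effect was tested as such. From 12 h to 48 h the effect grew for 5 of the 32 genes, 15.6% beside 5.47% of all genes (2.84% higher and 2.63% lower), which were Col14a1 (1.72 ± 0.175), Col23a1 (1.34 ± 0.176), Col5a2 (1.02 ± 0.144), Col4a2 (1.00 ± 0.184) and Col4a1 (0.95 ± 0.156). From 24 h to 48 h it grew for 3, 9.38% beside 3.11% (1.46% higher and 1.65% lower), which were Col23a1 (1.29 ± 0.176), Col14a1 (1.18 ± 0.175) and Col5a2 (0.64 ± 0.144). From 12 h to 24 h 0 of 32 passed with limma, where 0.105% of all genes did (0.0841% higher and 0.021% lower), and 4 had an unadjusted p under 0.05 (7.56% of all genes): Col4a2 (0.75), Col4a1 (0.69), Col14a1 (0.54) and Col5a2 (0.38). These differences share arrays. Of the kept probe sets 1 of 2 was called for Col4a1 from 12 h to 48 h and for Col5a2 from 24 h to 48 h. For Col13a1 and Col1a2 no difference between times passed, except for Col13a1 from 12 h to 48 h without the uninduced 12 h array numbered 3 (0.66, adjusted p = 0.0293).

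The genes that make, trim, crosslink, bind and degrade collagen were counted from lists of the pathway. Of 19 tested genes for synthesis and folding 0 passed at 12 h, 1 at 24 h and 3 at 48 h on induction, all higher. These shares, 5.26% at 24 h and 15.8% at 48 h, were near the 3.91% and 12.4% of all genes. Serpinh1, the collagen chaperone, had changes of 0.57 ± 0.0874 at 24 h and 0.90 ± 0.0874 at 48 h. P3h2, a prolyl 3-hydroxylase that acts on collagen IV, and P4ha2, a catalytic subunit of prolyl 4-hydroxylase, had 1.01 ± 0.150 and 0.65 ± 0.190 at 48 h. The same list had 7 higher and 4 lower over the uninduced course (57.9% beside 33.6% of all genes), with rises in P3h2 (1.23), P4ha1 (1.18) and Serpinh1 (1.06) and a fall in Sec24d (−1.33), a coat protein of the vesicles that carry procollagen.

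Of 12 genes for processing and crosslinking 0, 1 and 3 passed at the 3 times, all higher, 8.33% at 24 h and 25% at 48 h beside 3.91% and 12.4% of all genes. Pxdn, the peroxidase that crosslinks collagen IV, had 0.47 ± 0.0946 at 24 h. Adamts3, a procollagen protease, Sparc, a collagen-binding matrix protein, and Pcolce2, which aids procollagen cleavage, had 1.00 ± 0.142, 0.70 ± 0.0835 and 0.44 ± 0.111 at 48 h. Over the uninduced course 3 rose and 2 fell (41.7% beside 33.6%), with Pxdn at 1.05 and Pcolce2 at −1.32.

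Of 12 genes for receptors and degradation, 1 passed at 12 h, the receptor kinase Ddr1 (0.34 ± 0.0793), and 2 at 24 h, Mmp9 (0.56) and Mmp2 (0.39). At 48 h 3 were higher, the matrix proteases Mmp9 (1.23 ± 0.120), Mmp2 (0.63 ± 0.0975) and Mmp14 (0.44 ± 0.103), and 1 was lower, Mmp13 (−0.56 ± 0.184). The shares were 8.33%, 16.7% and 33.3% beside 1.08%, 3.91% and 12.4% of all genes. Of the 13 partners of collagen IV in basement membranes, the laminin chain Lama1 passed at 12, 24 and 48 h with 1.37, 1.45 and 0.78, each with an SE of 0.110, so it was already higher at 12 h, when the changes of Col4a1 and Col4a2 did not pass. At 48 h the linker Nid1 (0.70 ± 0.0977) and the proteoglycan Agrn (0.48 ± 0.0965) passed as well, which made 7.69%, 7.69% and 23.1% of the partners at the 3 times. In the uninduced course 2 partners rose and 4 fell (46.2% beside 33.6% of all genes), among them Nid1 (−0.77) and Nid2 (−0.53).

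Fibroblasts make much of collagens I, III, V and VI, and the stem cells had grown on them, so 28 fibroblast markers were read beside the collagens, of which 26 had a probe set and 23 were tested; Mmp2, Lox and Loxl1 are also in the lists above. On induction 1 marker was higher and 0 lower at 12 h (4.35% beside 1.08% of all genes). At 24 h 4 were higher and 1 lower (21.7% beside 3.91%), and at 48 h 9 were higher and 0 lower (39.1% beside 12.4%). The medians of the 23 markers were 0.09, −0.06 and 0.09. The summed signal of the 26 markers was 3123 to 3440.45 on the uninduced arrays and 3693 to 4218 on the induced arrays at 12 h. At 24 h it was 2769 to 3229 without and 3734 to 4074 with induction, and at 48 h 2628 to 2704.5 without and 4106 to 4401 with induction. Bright genes weigh most in this sum. Fstl1 alone had means of 533 without and 1024 with induction at 12 h, and of 640 and 1268 at 48 h. Timp1 and Dcn went the other way at 48 h, with 186 and 56.4 without and 160 and 35.4 with induction.

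**Figure D5:**
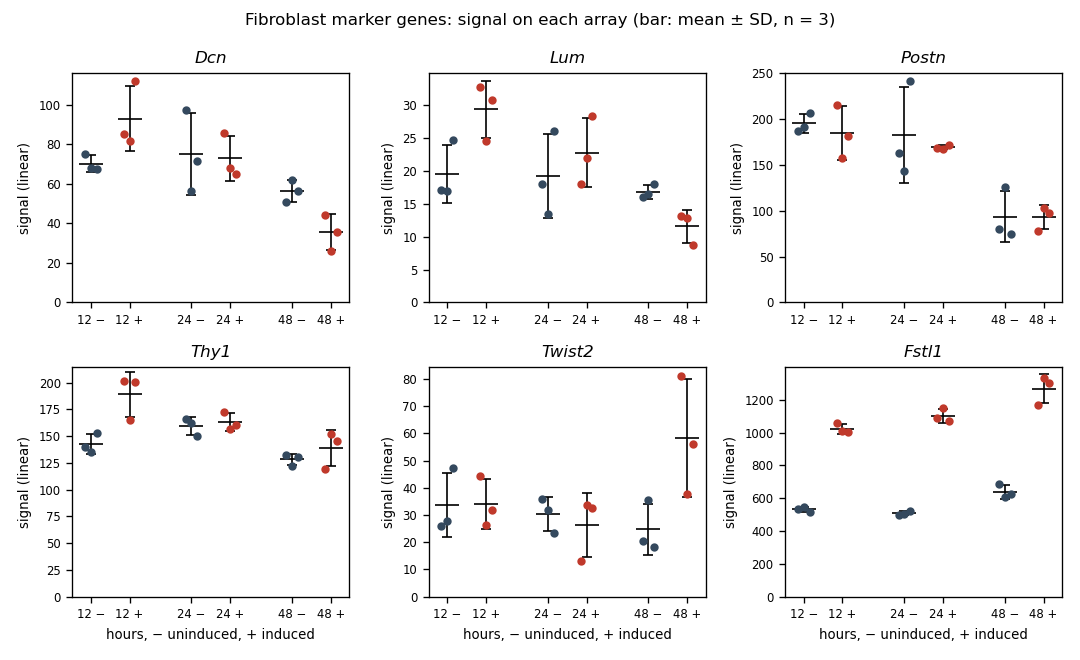
Signal (linear scale) of 6 fibroblast markers on each array against hours after doxycycline, blue points for uninduced (−) and red points for induced (+) embryoid bodies, with bars for the mean ± SD of 3 arrays. Fstl1 reads 1005 to 1336 on the induced arrays and 500.1 to 687 on the uninduced arrays. Twist2, called higher at 48 h, reads 37.8 to 80.9 with and 18.4 to 35.4 without induction at that time. Dcn, Lum, Postn and Thy1 show no rise on induction past the test.

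Of the 8 markers taken as most defining (Dcn, Lum, Postn, Thy1, Fap, Dpt, Ogn and Twist2), Fap and Ogn were not tested, and of the other ones Twist2 alone was called higher at 48 h. The 9 called markers were Fbln2 (1.23), Fstl1 (0.95), Acta2 (0.75), Pdgfrb (0.74), Tagln (0.72), Twist2 (0.65), Mmp2 (0.63), Cd44 (0.45) and Prrx1 (0.44). Fibroblasts use these genes, and so do mesenchymal and muscle-forming cells. Which cells their signal came from was not tested. Dcn, a fibroblast proteoglycan, read 50.7, 61.9 and 56.6 without and 44.3, 26.3 and 35.8 with induction at 48 h, a change of −0.40 ± 0.134 (adjusted p = 0.0572). Lum and Postn, both matrix proteins of fibroblasts, had changes of −0.17 and 0.01 at 48 h (adjusted p = 0.415 and 0.976), and Thy1, a fibroblast surface protein, had 0.09 (adjusted p = 0.632). At 12 h Thy1 and Dcn had 0.34 and 0.28 (adjusted p = 0.0976 and 0.434). Fap, Dpt and Ogn were below the array median on all 18 arrays and Lum on 11, while Dcn, Postn and Thy1 were above it on all 18.

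Over the uninduced course 10 of the 23 fibroblast markers fell and 3 rose (56.5% beside 33.6% of all genes), with a median of −0.21, and in the induced course 12 fell and 5 rose (73.9% beside 41.7%), with a median of −0.35. S100a4 (−1.10), Ccl2 (−0.99), Postn (−0.88) and Acta2 (−0.82) had the largest falls without induction. The falls of Col6a3 in both courses and of Col3a1 in the induced course went the same way as these markers. The part of carried-over fibroblasts in these collagen values was not tested.

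Basement membrane chains are also made by extraembryonic endoderm and by endothelium. Of 13 tested markers of extraembryonic endoderm, 4 were higher and 3 lower on induction at 48 h, with Sox7 at 1.42, Pth1r at 1.17, Gata4 at 0.92 and Foxa2 at −2.04, a share of 53.8% beside 12.4% of all genes. Their summed signal at 48 h was 3880 to 4188 without and 2969 to 3421 with induction. Bright genes weigh most in this sum: Foxa2 had means of 772 without and 168 with induction, Sox17 597 and 317, and Apoe 1974 and 1578. Gata6 went the other way, with 296 and 475, as did Sox7, Pth1r and Gata4. Cubn, Afp and Ttr were below the array median on all 18 arrays. Whether the signals of Foxa2, Sox17 and the other markers came from extraembryonic endoderm or from other cells was not tested. Over the uninduced course 6 rose and 0 fell (46.2% beside 33.6%). Of 10 endothelial markers 2, 3 and 6 were higher at the 3 times and 0 lower (20%, 30% and 60% beside 1.08%, 3.91% and 12.4% of all genes), with Kdr at 2.39, Esam at 0.90, Tek at 0.82 and Sox18 at 0.69 at 48 h. Their summed signal at 48 h was 481 to 603 without and 1223 to 1373 with induction, and at 24 h it was 319.8 to 421 and 596 to 683. Kdr is also a gene of early mesoderm. The part of these cell types in the changes of Col4a1 and Col4a2 was not tested.

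The label of the samples was read against 8 markers each of pluripotent cells and early mesoderm. At 48 h 6 pluripotency markers were lower and 0 higher on induction, and 6 mesoderm markers were higher and 0 lower. That was 75% of each list beside 12.4% of all genes (6.86% higher and 5.56% lower). The summed mesoderm signal went from 711 to 828 on the uninduced arrays at 12 h to 5479 to 6874 at 48 h, and was 7897 to 9610 on the induced arrays at 48 h.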

How the data were processed

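Total RNA (100 ng, RIN above 9) was reverse transcribed, biotin-labelled and hybridised to 18 Affymetrix arrays, per the labels' protocols. The deposited values are signal intensity on a linear scale for 45101 probe sets. GCOS made them, per the submitters' processing notes; version and algorithm: not given in the sources used here. The 2% trimmed mean of the deposited intensity values was equal on all arrays, so the authors had scaled each array, and no further normalization was added: array medians of log2(signal + 32) lay within 0.0932.

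Of the probe sets, 64 controls were left out, 34945 had 1 gene (34741 matched by Entrez identifier), 932 several and 9160 none. A probe set was kept if a group mean reached the 40th percentile of all values, 25881 probe sets were kept, and the brightest by mean log2 stood for its gene, giving 14273 genes. By mean signal only Col27a1 would have had another probe set. Limma 3.58.1 in R 4.3.3 fitted 1 mean per group (12 residual degrees of freedom) with variances moderated along a trend, and its 2-sided p-values were adjusted over genes by Benjamini-Hochberg. Values on every array are given for Col1a1, Col1a2, Col3a1, Col4a1, Col4a2 and for chains called with a change of at least 0.5 on induction or over the uninduced course (at most 16). Other called chains are named with their change, and from each list up to 4 called genes per comparison. The members and lists were chosen with earlier results of these data known. The steps were tested on simulated data.

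Other settings were quantile normalization, other filters and offsets, averaged probe sets, all kept probe sets, other variance models, only the arrays of a comparison, a replicate block and leaving out each array. Same-numbered arrays deviated from their group means with correlations of 0.197, 0.137 and 0.442 at 24 h, and of -0.128 to 0.0834 at 12 h and 48 h. Differently numbered arrays at 24 h had -0.324 to 0.203, so only the arrays numbered 3 stood out. The main fit used no block, and its p-values take no account of pairing. The replicate block paired same-numbered arrays at each time. The number of arrays limits the precision. Plots were made in Python 3.11.15 (matplotlib 3.10.9). Promoters came from RefSeq (GRCm38.p6); array positions were not used.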

Additional observations from a re-analysis of the deposited data

Results flagged for a closer look

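The effect of induction differed between collection times for 5 collagen genes, by limma's test of the difference itself. From 12 h to 48 h the effect grew by 1.72 for Col14a1 (adjusted p = 1.93e-06), by 1.34 for Col23a1 (adjusted p = 3.41e-05), by 1.02 for Col5a2 (adjusted p = 9.41e-05), by 0.95 for Col4a1 (adjusted p = 5.02e-04) and by 1.00 for Col4a2 (adjusted p = 0.00137), all on the log2(signal + 32) scale. From 24 h to 48 h it grew by 1.18 for Col14a1 (adjusted p = 3.50e-04), by 1.29 for Col23a1 (adjusted p = 1.23e-04) and by 0.64 for Col5a2 (adjusted p = 0.0135). The intervals between times share arrays, so these differences are not independent of each other. For Col4a1 from 12 h to 48 h and for Col5a2 from 24 h to 48 h, 1 of 2 kept probe sets was called; the other ones had 0.46 and 0.49, with p-values of 0.138 and 0.203 adjusted over probe sets.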

How the results depend on the processing

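Of 48 calls of single collagen genes, 41 were kept under every setting run that tested the gene. Col8a2 over the uninduced course was tested in 14 such settings, where the other calls of that course had 15. The rest are the calls of Col13a1 at 12 h, Col1a2 at 24 h, Col9a1 and Col19a1 at 48 h, Col9a1 over the uninduced course, and Col16a1 and Col19a1 over the induced course, and none changed sign. In other settings further genes passed, Col4a5 at 48 h among them. Col16a1 was lost in 7 of 15 settings, Col19a1 at 48 h in 4 of 15, and Col19a1 over the induced course with the mean of its probe sets (adjusted p = 0.0714). Leaving out each array in turn gave 0 to 1 collagen genes on induction at 12 h, 3 to 5 at 24 h and 9 to 11 at 48 h. For the effect at 24 h minus that at 12 h it gave 0 to 1: Col4a2 (0.89, adjusted p = 0.0438) passed without the uninduced array numbered 1 and Col4a1 (0.79, adjusted p = 0.0344) without the induced array numbered 1. With the replicate block 1, 4 and 11 collagen genes were called at 12, 24 and 48 h, where Col9a1 lost its call at 48 h (adjusted p = 0.0577) and Col4a5 gained one (0.40, adjusted p = 0.0212); no other collagen call changed with the block. No block was fitted for the courses over time, which compare different times. Col9a3 passed over the uninduced course without the uninduced 48 h array numbered 1 (0.47, adjusted p = 0.0315), and Col8a2 in the effect at 48 h minus that at 12 h without the induced 12 h array numbered 2 (0.54, adjusted p = 0.0368). Without the filter Col25a1 was called at 48 h (0.30, adjusted p = 0.0402). At 24 h Col5a1 and Col5a2 were called with averaged probe sets (0.51 and 0.34, adjusted p = 0.00320 and 0.0284), and at 12 h Col1a2 with only the 12 h arrays (adjusted p = 0.0444). Over all genes the count at 12 h, 154, was 74 to 134 with each array left out in turn. At 24 h it was 558 and became 241 with only the 24 h arrays, 331 without the uninduced array numbered 1, 306 without the induced array numbered 2 and 328 without both arrays numbered 3, a setting chosen after seeing the data. For the effect at 24 h minus that at 12 h, 15 genes became 24 with the block and between 9 and 26 in the other settings that moved it by over 1.5 times. With all kept probe sets 5949 calls over the induced course became 9012.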
